A study of Mus musculus with 8 samples.

Results

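The 9 genes described here encode the JAK kinases Jak1, Jak2, Jak3 and Tyk2 and the STAT factors Stat2, Stat3, Stat5a, Stat5b and Stat6. They were chosen by family, as 9 of the 33435 named genes in a table of RNA sequencing counts, and all 9 were abundant enough to be tested. Other STAT genes are not analysed here. The tested cells were mouse fetal liver hematopoietic stem and progenitor cells (C57BL/6J, stage E14.5) that had been infected with Trim27 virus, and the control cells came from the same source and received a control virus carrying GFP. Myeloid progenitors were sorted from both, and there were 4 libraries per group. Trim27 is a ubiquitin ligase of the tripartite motif family. Neither the vector and its promoter nor whether libraries of a group came from separate animals or cultures is given in the labels, so the p-values speak only of how these libraries differ among themselves, which can be technical.

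JAK kinases are tyrosine kinases that sit on the inner tails of cytokine receptors. When a cytokine binds, they phosphorylate the receptor and the STAT factors docked there, which pair up, enter the nucleus and switch on target genes. In myeloid progenitors this route carries signals of GM-CSF, IL-3, G-CSF, erythropoietin and thrombopoietin, with Jak2 and the Stat5 pair at its centre, while Jak1, Tyk2 and Stat2 serve interferon receptors and Stat6 serves IL-4.

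Stat5a and Stat5b are neighbouring paralogs on mouse chromosome 11, transcribed from opposite strands and 8626 bases apart in GRCm38. Their sequences are shown because the main contrast among the 9 genes lies between them and because they hold long identical runs. The longest identical run in their coding sequences (GENCODE vM21) was 324 bases long, at coding positions 571 to 894 in both. A stretch of 120 coding bases from position 531 to 650 is given for each, with the first 80 bases of the identical run in capitals and the 40 bases before it, which hold 1 difference, in lower case.
Stat5a coding: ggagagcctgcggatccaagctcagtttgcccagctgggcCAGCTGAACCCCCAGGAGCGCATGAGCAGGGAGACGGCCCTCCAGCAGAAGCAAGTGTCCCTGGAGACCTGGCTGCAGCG
Stat5b coding: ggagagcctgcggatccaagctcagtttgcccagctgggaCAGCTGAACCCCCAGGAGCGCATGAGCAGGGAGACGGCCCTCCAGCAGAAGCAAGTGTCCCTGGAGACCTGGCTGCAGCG

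Windows of 300 bases around 1 annotated start of each gene (RefSeq, GRCm38.p6) also resembled each other. The Stat5a window was chr11:100860234-100860533 on the plus strand and the Stat5b window was chr11:100822521-100822820 on the minus strand, each from 250 bases before the start to 50 after it. A local alignment found a stretch with 83 of 104 aligned positions identical (79.8%), shown in capitals. Each gene had a second window in RefSeq, from 100859406 for Stat5a and from 100850532 for Stat5b. Both lie upstream of the windows shown, which are thus around the inner start of each gene. The pairing of the outer windows scored 16. Pairings with those scored only 16 to 23, against 59 for the pairing shown, so the likeness holds for the starts shown and not for all starts of the genes.
Stat5a promoter: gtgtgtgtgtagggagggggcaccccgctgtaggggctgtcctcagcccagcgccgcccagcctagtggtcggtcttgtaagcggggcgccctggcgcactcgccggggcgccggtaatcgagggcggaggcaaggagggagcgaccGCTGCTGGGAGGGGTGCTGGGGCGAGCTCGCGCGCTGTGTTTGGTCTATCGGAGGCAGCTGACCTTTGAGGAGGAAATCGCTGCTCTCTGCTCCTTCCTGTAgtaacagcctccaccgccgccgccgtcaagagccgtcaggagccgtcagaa
Stat5b promoter: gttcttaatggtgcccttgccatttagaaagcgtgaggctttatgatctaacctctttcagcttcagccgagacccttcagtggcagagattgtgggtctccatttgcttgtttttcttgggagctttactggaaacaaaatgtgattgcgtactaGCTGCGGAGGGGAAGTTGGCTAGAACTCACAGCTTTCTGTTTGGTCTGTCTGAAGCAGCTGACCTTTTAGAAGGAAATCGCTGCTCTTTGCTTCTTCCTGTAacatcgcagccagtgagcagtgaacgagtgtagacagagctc

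The libraries held 10551137 to 16366571 counts with Trim27 virus and 9257889 to 10747794 with GFP virus, and 12962 to 13283 against 11131 to 11850 genes were detected. Levels are given as counts per 1000000 (CPM) relative to library sizes scaled by the trimmed mean of M values (TMM). The TMM factors were 1.09 to 1.13 in the Trim27 libraries and 0.891 to 0.905 in the GFP libraries. Ribosomal protein genes took 18.2% to 19.0% of the counts with Trim27 virus and 26.2% to 26.3% with GFP virus. The part of this difference in the fold changes was not tested. Trim27 itself had 268, 311, 292 and 301 CPM in the 4 Trim27 libraries, against 191, 184, 177 and 171 CPM in the GFP libraries, a log2 fold change of 0.70 (SE 0.05, adjusted p = 7.4e-13), which was 1.001 with library size only and 0.13 (adjusted p = 0.0368) with a trend on exon length removed. The groups differed across most of the transcriptome. Of 11040 genes tested, 85.5% passed an adjusted p of 0.05 by edgeR's quasi-likelihood test, 47.5% higher and 38% lower with Trim27 virus. Higher calls thus made up 55.6% of all calls under TMM, and 66.9% with library size only. Long genes were more often higher, with a median log2 fold change of -0.81 under 500 bases of exon sequence, 0.31 between 2000 and 4000, 0.56 between 4000 and 8000 and 0.84 for longer genes. The 9 genes span 3775 to 6228 bases, and whether length takes part in their values was not tested beyond the alternative scalings given below.

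Expression of 8 of the 9 genes rose with Trim27 virus and that of 1, Stat5b, fell, although only 4 (Jak1, Jak3, Stat3 and Stat5a) were called higher once a trend on exon length was removed, and Stat5b was not called lower with scaling by library size only. With that trend removed Tyk2 and Stat6 missed the threshold, and Jak2 (-0.20) and Stat2 (-0.17) turned negative on the log2 scale without passing. The largest difference was that of Stat5a, which was 4.34-fold higher, followed by Jak3 at 2.81-fold and Stat3 at 2.02-fold. The kinase genes ranged from 1.36-fold higher for Jak2 to 2.81-fold higher for Jak3. The median log2 fold change of the 9 genes was 0.79, beside 0.14 over all tested genes. For 7 of the 9 the groups did not overlap, where 80.7% of all tested genes had groups apart. Among 2927 tested genes of like level and length (2 to 7 log2 CPM and 3 to 7 kb of exon), 50.6% were higher and 34.3% lower, with a median of 0.24. The 8 of 9 is read against these backgrounds, and nothing particular to the family is read from it.

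**Figure D1:**
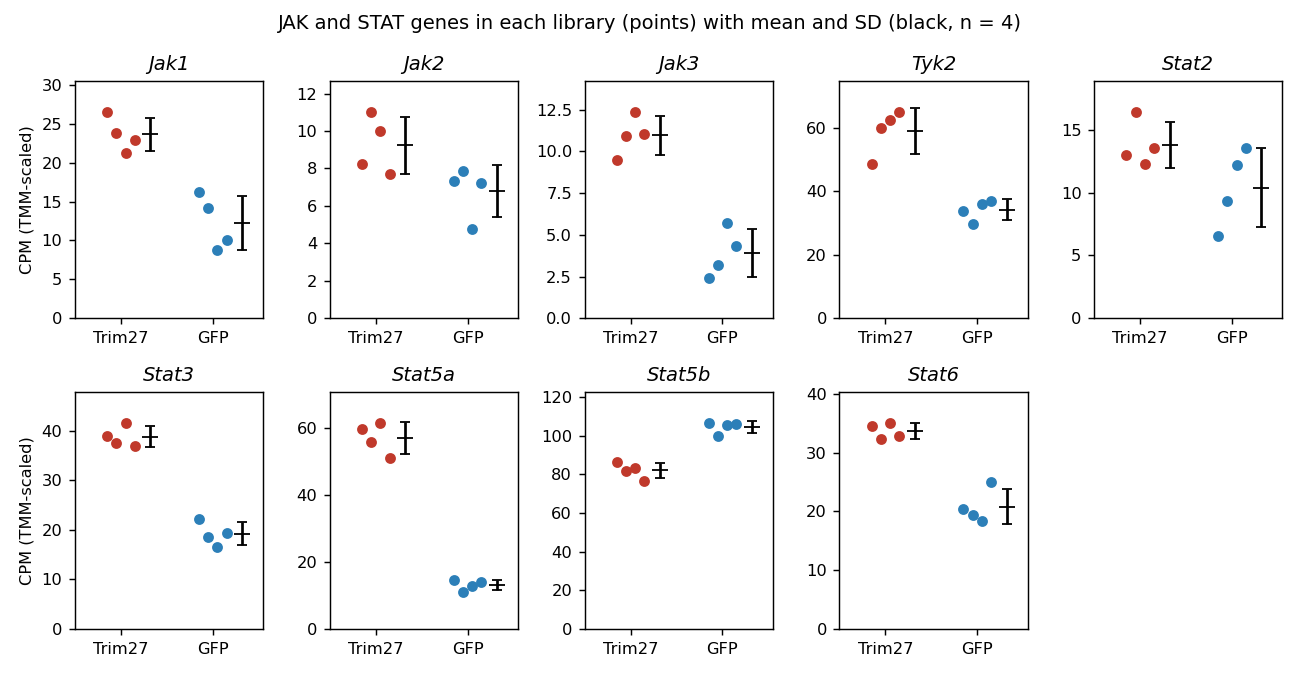
CPM of the 9 genes (vertical axes, each from 0) in each of the 4 Trim27 and 4 GFP libraries, as points, with mean and SD in black. Stat5a lies between 50.9 and 61.5 CPM with Trim27 virus and between 11.1 and 14.6 with GFP virus, Stat5b is lower with Trim27 virus, and the points of Jak2 and of Stat2 overlap between the groups.

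Among the kinases, Tyk2, which serves interferon and IL-12 receptors, was the most abundant. It had 48.5, 59.9, 62.4 and 64.9 CPM in the Trim27 libraries, against 33.8, 29.6, 36.1 and 37.0 CPM in the GFP libraries. Every Trim27 library lay above every GFP library, and the log2 fold change was 0.79 (SE 0.09, adjusted p = 4.7e-09), but 0.09 (adjusted p = 0.379) with the length trend removed. Trim27 replicate 1 was the lowest of its group. Over all annotated transcripts, Tyk2 shares 506 of its 7090 windows of 50 bases with the antisense transcript 1700084C06Rik, which was listed at 0 in all 8 libraries. The exons of Tyk2 used for its length here share 0 bases with it. Jak1, the partner kinase of many interferon, IL-6 family and common gamma chain receptors, had 26.5, 23.8, 21.3 and 22.9 CPM in the Trim27 libraries, against 16.2, 14.2, 8.73 and 10.1 CPM in the GFP libraries. The groups were apart here too (0.94, SE 0.14, adjusted p = 9.8e-07), although the GFP libraries varied more, with replicates 1 and 2 above replicates 3 and 4.

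Jak3 is bound to the common gamma chain and is best known in lymphocytes. Its level was 9.51, 10.96, 12.4 and 11.03 CPM in the Trim27 libraries, against 2.40, 3.19, 5.74 and 4.32 CPM in the GFP libraries. These values rest on 130 to 224 counts per Trim27 library and 21 to 48 per GFP library, and the groups did not overlap. The log2 fold change was 1.49 (SE 0.20, adjusted p = 9.4e-08), the steepest among the kinases. Il2rg, the gene of the common gamma chain, was named after its values were seen. It went the other way, as did 38% of all tested genes, with 4.43 CPM on average in the Trim27 group and 11.8 CPM in the GFP group (-1.41, adjusted p = 1.4e-08). Exons of Jak3 overlap Insl3 on the same strand, over 404 bases or 9.05% of the exon sequence of Jak3, and Insl3 was listed at 0 in all 8 libraries.

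Jak2, the kinase of the erythropoietin, thrombopoietin, GM-CSF and IL-3 receptors, gave the weakest kinase call. It had 8.24, 11.02, 9.995 and 7.72 CPM in the Trim27 libraries, against 7.31, 7.87, 4.78 and 7.20 CPM in the GFP libraries. Trim27 replicate 4 lay below GFP replicate 2, so the groups overlapped. At 40 to 183 counts per library the log2 fold change was 0.45 (SE 0.18, adjusted p = 0.0234). The call was lost without GFP replicate 3 (0.31, adjusted p = 0.111), without Trim27 replicate 2 (0.32, adjusted p = 0.135) and without Trim27 replicate 3 (0.37, adjusted p = 0.0877).

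Stat5a, which acts downstream of Jak2 in response to IL-3, GM-CSF, erythropoietin and prolactin, had 59.6, 55.6, 61.5 and 50.9 CPM in the Trim27 libraries, against 14.6, 11.1, 12.9 and 13.9 CPM in the GFP libraries. Both sets were tight and far apart. The log2 fold change of 2.12 (SE 0.10, adjusted p = 8.5e-18) was still not rare in these data, since 20.9% of all tested genes rose by more. Stat5b, its paralog with largely shared roles in blood cells, had 86.2, 81.7, 83.5 and 76.7 CPM in the Trim27 libraries, against 107, 99.7, 105 and 106 CPM in the GFP libraries. Each Trim27 library lay below each GFP library (-0.35, SE 0.06, adjusted p = 4.3e-06). That fall depended on scaling. With library size alone it was -0.04 (adjusted p = 0.497), since that scaling moved the median of all genes from 0.14 to 0.44 on the log2 scale.

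The balance within the pair needs no scaling by library size. It is not free of a trend on exon length, since Stat5a has 3968 and Stat5b 5539 bases. With that trend removed their log2 fold changes were 1.60 and -1.04, and the ratio was not computed under that setting. Stat5a made up 40.9%, 40.5%, 42.4% and 39.9% of the summed Stat5a and Stat5b counts in the Trim27 libraries, against 12.1%, 9.99%, 10.9% and 11.6% in the GFP libraries. On the log2 scale the ratio of Stat5a to Stat5b counts (1 added to each) averaged -0.53 ± 0.06 with Trim27 virus and -2.99 ± 0.13 with GFP virus (SD, n = 4 each). The difference of 2.46, or 5.50-fold, had an exact two-sided permutation p of 0.0286, the smallest that 4 against 4 libraries allow. The ratio was chosen with earlier results of these data known, so this p is given as a description only. Leaving out any 1 library gave differences of 2.40 to 2.50. The pair counted as 1 gene, an analysis added after the data were seen, had 146, 137, 145 and 128 CPM in the Trim27 libraries, against 121, 111, 118 and 120 CPM in the GFP libraries. Its log2 fold change was 0.24 (SE 0.06, adjusted p = 0.000311), against 0.55 with library size only and, after removal of the length trend, -0.45 (adjusted p = 3.1e-08), so the direction of the sum depended on the scaling.

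How far reads were shared within the pair is not known from the counts, and the read length is not given in the sources used here. As a description of the sequence alone, of all 50-base windows of annotated transcripts, 8.52% of those of Stat5a and 10.98% of those of Stat5b occurred in transcripts of another gene, with 608 windows common to both. The transcripts counted gave 7407 windows for Stat5a, whose exon length used here is 3968 bases, and 5535 for Stat5b, at 5539 bases. These shares thus have unlike bases, and which gene is the more exposed is not read from them. Stat5a and Stat3 also overlap on opposite strands, over 72 bases of exon sequence. No strand setting or handling of reads with several matches is given in the sources used here, and the part of shared reads in the shift was not tested.

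**Figure D2:**
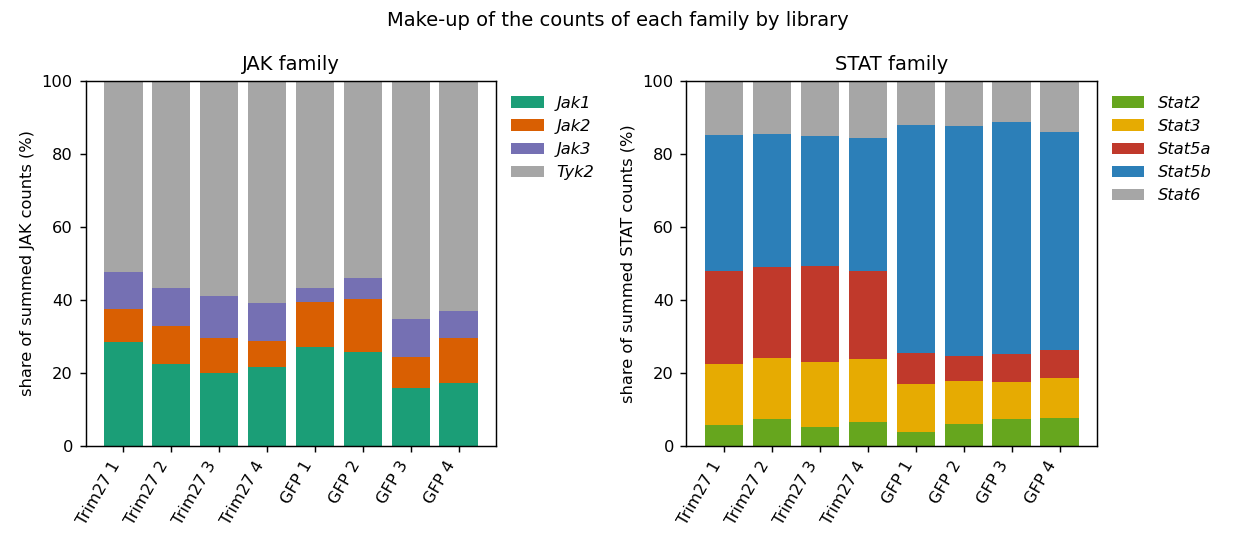
Share (%) of each gene in the summed counts of the 4 JAK genes (left) and the 5 STAT genes (right) in each Trim27 and GFP library. Stat5b takes 35.7% to 37.1% of the STAT counts in the Trim27 libraries, against 59.6% to 63.7% in the GFP libraries, while the make-up of the JAK counts varies more between libraries of a group.

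The other STAT genes were higher under TMM scaling. Stat3, the factor of IL-6 and G-CSF signalling, had 39.0, 37.6, 41.6 and 36.8 CPM in the Trim27 libraries, against 22.2, 18.5, 16.6 and 19.4 CPM in the GFP libraries. Its groups were well apart (1.02, SE 0.10, adjusted p = 1.1e-10). Stat6, the factor of IL-4 and IL-13 signalling, had 34.5, 32.3, 35.1 and 32.9 CPM in the Trim27 libraries, against 20.3, 19.4, 18.4 and 25.1 CPM in the GFP libraries. The groups did not overlap, and GFP replicate 4 was the highest of its group (0.69, SE 0.10, adjusted p = 3.4e-07). With the length trend removed the Stat6 value was 0.20 (adjusted p = 0.0775). Stat2, which joins Irf9 in the complex formed after type I interferon, had 13.0, 16.4, 12.3 and 13.6 CPM in the Trim27 libraries, against 6.51, 9.36, 12.2 and 13.6 CPM in the GFP libraries. Only GFP replicates 1 and 2 lay clearly below the Trim27 libraries (0.40, SE 0.17, adjusted p = 0.0292). That call was lost without GFP replicate 1 (0.24, adjusted p = 0.161), without GFP replicate 2 (0.35, adjusted p = 0.0828), without Trim27 replicate 2 (0.27, adjusted p = 0.168) and without Trim27 replicate 4 (0.38, adjusted p = 0.0679).

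Shares of the STAT counts need no scaling by library size. Stat3 took 17.2% ± 0.4999 with Trim27 virus and 11.4% ± 1.26 with GFP virus (SD, n = 4 each). Stat6 took 14.98% ± 0.478 with Trim27 virus and 12.4% ± 1.25 with GFP virus. The share of Stat2 was alike in both, at 6.16% ± 0.941 with Trim27 virus and 6.19% ± 1.74 with GFP virus. Within the JAK counts Tyk2 took 57.2% ± 3.69 with Trim27 virus and 59.7% ± 5.32 with GFP virus. Jak3 took 10.7% ± 0.671 with Trim27 virus and 6.89% ± 2.69 with GFP virus, and GFP replicate 3, at 10.4%, lay within the Trim27 range. Summed over the family, JAK genes had 103 ± 6.68 CPM with Trim27 virus and 57.1 ± 2.42 CPM with GFP virus, and STAT genes had 225 ± 10.5 CPM with Trim27 virus and 168 ± 8.39 CPM with GFP virus.

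Levels were compared between genes only per length, as CPM per kb of exon. In the Trim27 group Stat5b (14.8 ± 0.722) and Stat5a (14.3 ± 1.18) stood at the top with overlapping libraries, then Tyk2 (10.6 ± 1.30), Stat6 (8.93 ± 0.345), Stat3 (6.22 ± 0.340), Jak1 (4.82 ± 0.445), Stat2 (3.14 ± 0.415), Jak3 (2.46 ± 0.262) and Jak2 (1.84 ± 0.304), each as mean ± SD of 4 libraries. Neighbours in this order overlapped for Stat5b and Stat5a, Tyk2 and Stat6, and Jak3 and Jak2. In the GFP group Stat5b alone stood high, at 18.9 ± 0.579, ahead of Tyk2 at 6.14 ± 0.597, Stat6 at 5.51 ± 0.785 and Stat5a at 3.31 ± 0.388. Tyk2 and Stat6 overlapped, and from Stat5a down every neighbour in the GFP order overlapped with the next, through Stat3 (3.08 ± 0.370), Jak1 (2.51 ± 0.711), Stat2 (2.37 ± 0.713), Jak2 (1.35 ± 0.273) and Jak3 (0.876 ± 0.325). Stat5a thus took the second place with Trim27 virus and the fourth with GFP virus, and Jak3 and Jak2 exchanged the last places within overlapping spreads.

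**Figure D3:**
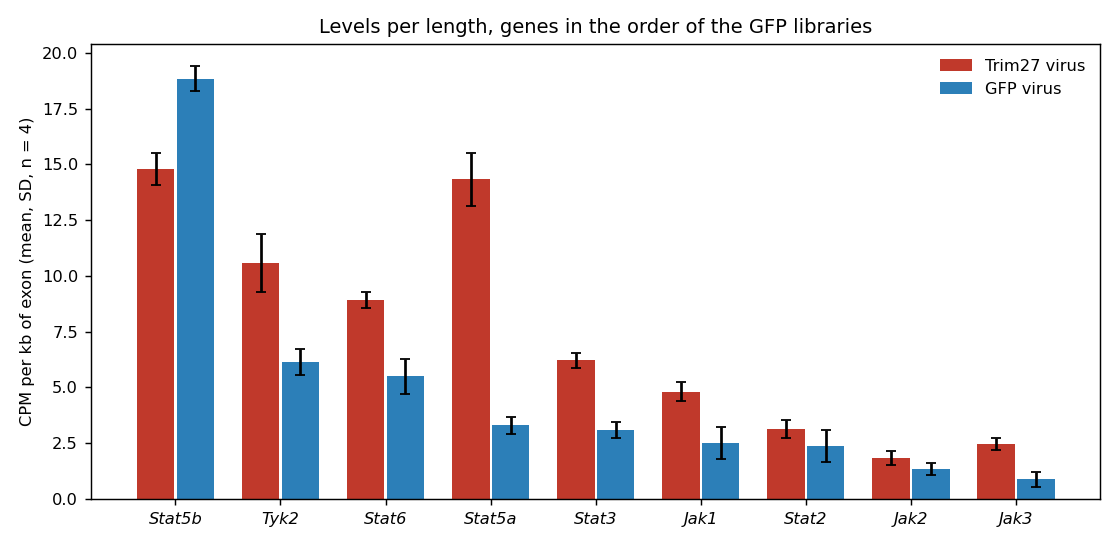
CPM per kb of exon sequence for the 9 genes, as means with SD over 4 Trim27 and 4 GFP libraries, in the order of the GFP means. Stat5a reaches the level of Stat5b with Trim27 virus (14.3 and 14.8) but not with GFP virus (3.31 and 18.9).

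The size of every member's difference moved with the scaling. Stat5a and Jak3 stayed the highest and Stat5b the lowest under the 4 scalings plotted. Removing from each library its trend on exon length lowered all 9 values, to 1.60 for Stat5a, 0.91 for Jak3, 0.31 for Jak1, 0.27 for Stat3, 0.20 for Stat6, 0.09 for Tyk2, -0.17 for Stat2 (adjusted p = 0.366), -0.20 for Jak2 (adjusted p = 0.314) and -1.04 for Stat5b on the log2 scale. Under that scaling 4 members were higher and 1 was lower. With the same trend taken from genes of at least 6 log2 CPM only, the 8 rises and the fall all held. Stat5a and Jak3 stayed higher and passed under all 19 alternatives, as did Jak1 and Stat3.

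**Figure D4:**
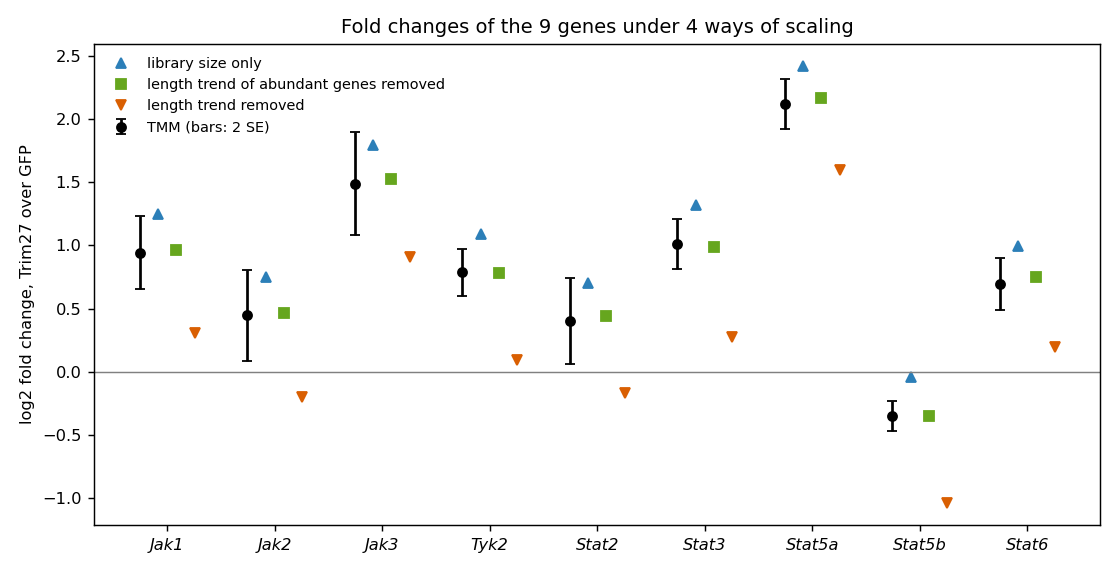
Log2 fold change (Trim27 over GFP, vertical axis) of the 9 genes under TMM scaling with bars of 2 SE, under library size only, and with the exon length trend of abundant genes or of all genes removed. Values with the trend of all genes removed are the lowest for each gene, and Stat5a is the highest gene under each scaling, from 1.60 to 2.42.

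The rest of the pathway did not move one way. Of 26 tested chains of receptors that signal through JAK kinases, 11 were lower, 14 were higher and 1 missed the threshold, with a median log2 fold change of 0.35 beside 0.14 for all tested genes. All tested genes were themselves split, with 47.5% higher and 38% lower. The counts of receptors, inhibitors, partners and targets are read against those shares, and nothing particular to the pathway is read from them. With library size only 15 were higher and 8 lower, and with the length trend removed 12 were higher and 12 lower. Csf2rb, the beta subunit common to several myeloid cytokine receptors, averaged 1193 ± 40.8 CPM with Trim27 virus and 472 ± 10.5 CPM with GFP virus (1.34, adjusted p = 4.4e-21). Its near-identical paralog Csf2rb2, with which it may share reads, rose by 2.05 (adjusted p = 7.4e-23). Il11ra1, the alpha chain of the IL-11 receptor, fell, with 26.4 ± 2.40 CPM in the Trim27 group and 95.2 ± 7.54 CPM in the GFP group (-1.86, adjusted p = 9.1e-19). The 2 chains of the type I interferon receptor, named after their values were seen, split. Ifnar1 averaged 32.6 CPM with Trim27 virus and 2.59 CPM with GFP virus (3.65), whereas Ifnar2 averaged 39.2 CPM with Trim27 virus and 60.9 CPM with GFP virus (-0.64).

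Of 19 tested inhibitors of the pathway, 11 rose and 8 fell (median 0.42), beside 47.5% and 38% of all tested genes. With the length trend removed 7 were higher and 9 lower (median -0.19), and with library size only 11 were higher and 5 lower. Pias3, an inhibitor of Stat3 with SUMO ligase activity, had 1534 counts over the Trim27 libraries and 4 over the GFP libraries, all 4 of them in GFP replicate 1. Pias2, of the same family, had 1409 counts over the Trim27 libraries and 19 over the GFP libraries. Pias4 fell, at 37.1 ± 1.33 CPM with Trim27 virus and 87.2 ± 9.46 CPM with GFP virus (-1.23, adjusted p = 4.0e-15), so the PIAS genes did not move as a group. Socs6, of the suppressors of cytokine signalling, had 1114 counts over the Trim27 libraries and 8 over the GFP libraries.

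Among partners of the kinases and factors, 5 of 15 tested were higher, 8 lower and 2 not past the threshold (median -0.20), beside 47.5% higher and 38% lower of all tested genes. With library size only 6 were higher and 2 lower (median 0.10). Ndufa13, a subunit of respiratory complex I that also binds Stat3, averaged 241 ± 16.5 CPM with Trim27 virus and 510 ± 17.2 CPM with GFP virus (-1.08, adjusted p = 1.1e-17). Sh2b2, an adaptor of Jak2, fell by 1.76 on the log2 scale (adjusted p = 7.0e-15), and Stam2, an adaptor of Jak2 and Jak3, rose by 2.01 (adjusted p = 3.9e-14).

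Genes known as STAT targets split as well, with 9 of 15 tested higher and 6 lower (median 0.42), beside 47.5% and 38% of all tested genes. With the length trend removed 7 were higher and 8 lower (median -0.26). Bcl2l1, the survival gene of Bcl-xL and a target of Stat5, averaged 41.6 ± 0.716 CPM in the Trim27 group and 3.67 ± 1.52 CPM in the GFP group (3.50, adjusted p = 2.4e-18). Osm, the gene of oncostatin M, averaged 36.7 ± 2.84 CPM in the Trim27 group and 5.29 ± 1.18 CPM in the GFP group (2.80, adjusted p = 1.0e-17). Lcp1, an actin bundling protein of blood cells, rose by 2.71 (adjusted p = 7.4e-22), and Id1, an inhibitor of basic helix-loop-helix factors, fell by 0.86 (adjusted p = 6.7e-14).

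**Figure D5:**
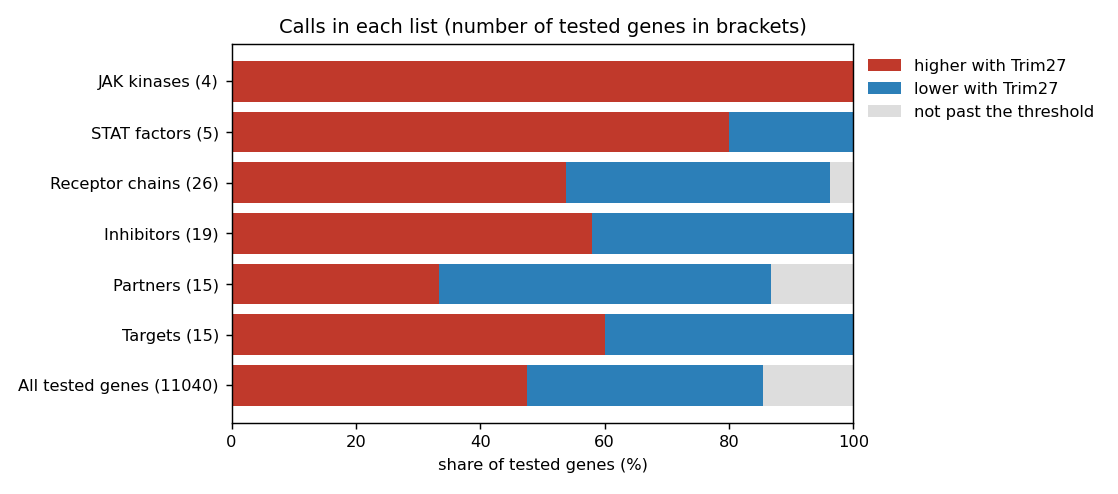
Share (%) of the tested genes of each list that were higher, lower or not past an adjusted p of 0.05, with all 11040 tested genes in the lowest bar. JAK kinases are higher in 4 of 4 and STAT factors in 4 of 5, but in 2 of 4 and 2 of 5 once the length trend is removed, while partners are lower in 8 of 15 and all tested genes are higher in 47.5% and lower in 38%.

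Genes next to the members on their chromosomes had values of their own. Ghdc, beside Stat5b, fell by 4.87 on the log2 scale, at 0.251 ± 0.200 CPM with Trim27 virus and 8.10 ± 1.19 CPM with GFP virus. Ptrf, which encodes cavin-1 and lies beyond Stat3, also fell (-1.22, adjusted p = 2.4e-09), so the cluster of Stat5b, Stat5a and Stat3 held both directions and its outer neighbours were lower. Nab2, a corepressor of Egr factors which overlaps Stat6 over 40 bases of exon on the opposite strand, had 767 counts over the Trim27 libraries and 0 over the GFP libraries. Tmem194, on the other side of Stat6, rose by 3.70 (adjusted p = 2.9e-08). Beside Tyk2, Cdc37, a partner of the chaperone Hsp90 that is not itself a kinase, had 367 ± 27.5 CPM with Trim27 virus and 407 ± 19.7 CPM with GFP virus (-0.15, adjusted p = 0.0115). It passed as higher with library size only (0.15, adjusted p = 0.0053) and did not pass with upper-quartile factors (-0.10, adjusted p = 0.075). Raver1, also beside Tyk2, fell by 0.63. Rcl1, beside Jak2, had a log2 fold change of 0.13 (adjusted p = 0.0148) that vanished with the length trend removed (adjusted p = 0.987) and missed the threshold without GFP replicate 2 (adjusted p = 0.0585), Trim27 replicate 2 (0.14), Trim27 replicate 3 (0.0552) or Trim27 replicate 4 (0.145). Ak4, beside Jak1, had 1.61 CPM with Trim27 virus and 2.04 CPM with GFP virus without passing (-0.32, adjusted p = 0.391), but passed as lower with the length trend removed (-0.87, adjusted p = 0.0231). Unc13a, before Jak3, had 197 counts over the Trim27 libraries and 2 over the GFP libraries.

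Likeness of pattern was measured as the root mean square difference of centred log2 CPM over the 8 libraries, among 4027 other genes of at least 5 log2 CPM, as a description. Nearest to Stat5a was Fes, a tyrosine kinase of myeloid cells (0.11), with 107 ± 6.84 CPM in the Trim27 group and 23.4 ± 2.90 CPM in the GFP group. Nearest to Stat5b was Tmem261 (0.03), to Stat6 Ist1 (0.04), to Stat3 Dna2, a nuclease and helicase (0.07), and to Tyk2 Otud5, a deubiquitinase (0.09). The less abundant members had looser matches, Acot13 for Jak2 (0.16), Chsy1 for Jak1 (0.17), Chd4 for Stat2 (0.21) and Susd3 for Jak3 (0.24).

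Markers of the sorted cells and of other types moved as well. All 10 myeloid progenitor markers were tested, 1 was higher (Spi1), 8 were lower and 1 did not pass, although with library size only 3 were higher and 5 lower, and with the trend on length taken from abundant genes only 2 were higher and 4 lower (38% of all tested genes were lower). Their median was -0.43 under TMM and -0.04 in this last fit, and their summed level was 1180 to 1343 CPM with Trim27 virus and 1641 to 1749 CPM with GFP virus. Of 10 B cell markers 9 were tested, all with negative fold changes, 6 of which passed, or 3 without GFP replicate 1, with sums of 41.1 to 56.2 CPM with Trim27 virus and 66.6 to 161 CPM with GFP virus. T and NK cell markers summed to 113 to 117 CPM with Trim27 virus and 46.6 to 57.3 CPM with GFP virus, with 2 of 10 tested (1 higher, 1 lower) and Ncr1 at 0 in every library. Tissue macrophage markers summed to 22.9 to 33.9 CPM with Trim27 virus and 0 to 1.20 CPM with GFP virus, with 2 of 10 tested, both higher, and 7, among them C1qa, Mrc1 and Cd163, at 0 in every library. Hepatocyte markers (14.9 to 16.4 CPM with Trim27 virus, 1.20 to 1.70 with GFP virus) had 2 of 10 tested, both higher, and Alb, Ttr and 5 others at 0 throughout. Endothelial and stromal markers summed to 8.91 to 10.2 CPM with Trim27 virus and 41.3 to 49.8 CPM with GFP virus, with 2 of 3 tested higher and 1 lower, and Cdh5, Kdr and 4 others were at 0 in all libraries. The T and NK cell, macrophage, hepatocyte and stromal lists had only 2 or 3 tested genes each, beside 47.5% higher and 38% lower of all tested genes. No shift of a cell type is read from these counts or sums. In bulk RNA fewer cells of a type and less RNA per cell cannot be told apart, and the part of other cell types in the JAK and STAT values was not tested.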

How the data were processed

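The deposited table holds raw counts by gene symbol, in 8 library columns. Per the submitters' processing notes, reads went through bcl2fastq, HISAT2 and featureCounts on the build NCBIM37. The sources used here give no versions, annotation, strand setting or handling of read pairs. Even numbers made up 64.7% to 67.0% of the small counts (1 to 10) in the Trim27 libraries and 68.4% to 72.0% in the GFP libraries, so halved counts were one alternative. A line with no gene name held 0 counts and was left out.

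Counts were fitted in R 4.3.3 with edgeR 4.0.16 (filterByExpr with minimum count 10 and minimum total 15, TMM, robust quasi-likelihood F-test, no covariate), 2-sided, with Benjamini-Hochberg adjustment over 11040 genes and a threshold of 0.05. SEs come from the fold change and its F statistic. On simulated counts of 10902 genes for this comparison, with a log2 change of 1, 95.9% of the changed genes were recovered. The simulation gave every gene the same dispersion and changed only 200 genes, as many up as down. That share checks the fit and is not the power for the 9 genes. Alternatives were DESeq2 1.42.0, limma 3.58.1 (voom), other scalings and filters, a replicate block, exon length trends and leaving out each library. Exon lengths (99.6% of tested genes), neighbours and shared windows came from GENCODE vM21 (GRCm38, not the authors' build), and promoters from RefSeq (GRCm38.p6), which matched all 9 members. Same-numbered libraries deviated with correlations of -0.03 to 0.02, within the range of the other pairs (-0.04 to 0.08), so no pairing by number was seen. Whether same-numbered libraries share an animal or culture is not given, and correlations near 0 cannot settle it.

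The members, lists and tests were chosen with earlier results of these data known. Named genes were the 9 members, Trim27, chromosomal neighbours, the 3 smallest p of each pathway list with 1 in the opposite direction, and the nearest pattern to each member. Il2rg, Ifnar1 and Ifnar2 were named after their values were seen. Marker lists cover myeloid progenitor, B cell, T and NK cell, tissue macrophage, hepatocyte, and endothelial and stromal genes.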

Additional observations from a re-analysis of the deposited data

Results flagged for a closer look

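In 7 of 106 groups of 4 libraries examined, the library at one end lay far from the other 3 by Dixon's criterion at 95%. For independent groups of normal values chance meets it in about 1 of 20, a rate that need not hold for shares or for counts near 0. The Jak3 share of JAK counts was 11.7% in Trim27 replicate 3, against 10.2% to 10.4% in the other Trim27 libraries. Trim27 replicate 1 was set apart for Pias3 (26.7 CPM, others 23.3 to 23.7), Susd3 (78.3 CPM, others 85.8 to 86.9) and Otud5 (79.4 CPM, others 89.3 to 89.9). GFP replicate 1 was set apart for Ndufa13 (535 CPM, others 500 to 504) and for Pias3 (0.457 CPM, others 0). For Unc13a, GFP replicate 4 had 0.206 CPM and the other GFP libraries 0. With the other libraries at 0 any count above 0 meets the criterion, so the GFP flags of Pias3 and Unc13a carry little weight.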

How the results depend on the processing

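The number of genes called stayed within 1.5 times of 9442 under all 19 alternatives. Calls were 66.9% higher with library size only and 47.4% higher with the length trend removed, against 55.6% under TMM. With the length trend removed 4 of the 9 members were higher, and Jak2 (-0.20), Stat2 (-0.17) and the summed Stat5 pair (-0.45) turned negative. With library size only 0 members were lower, Stat5b being at -0.04 (adjusted p = 0.497). Under the other alternatives 6 to 8 members were higher and 1 was lower, and Jak2 could not be tested at 10 CPM in 4 libraries. The Stat5a to Stat5b difference was 2.40 to 2.50 without 1 library each, where 4 against 3 cannot go below an exact p of 0.0571. With the replicate block, as sign flips of 4 pairs, it was 2.46 with an exact p of 0.125, the smallest possible. The replicate block in the gene fit gave 9160 calls with 7 members higher and 1 lower, Jak2 being lost (0.45, adjusted p = 0.0535). Among the other named genes, Ak4 passed (-0.87, adjusted p = 0.0231) with the length trend removed. Cdc37 turned to 0.15 with library size only and passed as higher (adjusted p = 0.0053). With the length trend removed Chd4 turned to -0.26 and passed as lower (adjusted p = 0.00455), while Rcl1 turned to -0.000957 and Tmem261 to 0.085. Tmem261 also turned to 0.37 with the trend of abundant genes removed. Halved counts kept every member's call. The smallest counts behind a member were 21 to 48 per GFP library for Jak3. The causes of these shifts were not tested.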

Other observations

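Short motifs were searched on both strands in the 11 RefSeq promoter windows of the 9 members, as a description of these windows only. TTCNNNGAA, the core pattern bound by most STAT dimers, was in 0 of 11 windows and in 8.30% of 32851 windows of all genes. TTCNNNNGAA, the wider spacing known for Stat6, was in 1 window, that of Stat2, and in 6.95% of all windows. GAGGAA, which is part of many sites of the factor PU.1, was in 1 window each of Stat5a and Stat6 and in 28.3% of all windows. In Stat5a it lay inside the stretch aligned with Stat5b, but the Stat5b sequence differs there and lacks the motif. TGTGGT, the core of Runx sites, was in windows of Stat2, Stat5a and Stat6 and in 16.8% of all windows. CCAAT was in windows of Jak1, Tyk2, Stat2 and Stat3 and in 37.4% of all windows.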
